A study of Mus musculus with 2 samples.

Results

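The visual cycle genes described here are Rlbp1, Rdh12, Rdh8, Rdh10, Rdh11, Abca4, Rbp3, Rgr and Rpe65, chosen by gene symbol as 9 of the 32285 genes in the deposited matrices. They were measured by droplet single-cell RNA sequencing of mouse retina in 2 libraries. One came from mice kept under short-wavelength light and the other from mice kept under full-spectrum white light, in both from postnatal day 14 and for 2 weeks. The labels name no strain, sex, genotype or number of pooled animals, and both groups are whole retina. Each light condition had 1 library, so no difference between the conditions has a replicate check and no p-value was computed.

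Vision consumes 11-cis-retinal, the chromophore of the opsins, and the visual cycle restores it. In the outer segment ABCA4 flips retinal adducts across the disc membrane and RDH8 reduces all-trans-retinal to retinol, and RDH12 reduces retinal in the inner segment. IRBP, encoded by Rbp3, binds retinoids in the space between photoreceptors and pigment epithelium. In the pigment epithelium LRAT forms retinyl esters, RPE65 is the isomerase, RDH5 and other dehydrogenases oxidise 11-cis-retinol, and CRALBP, encoded by Rlbp1, binds the 11-cis products. RGR is an opsin of pigment epithelium and Müller glia. Müller glia, the radial glia of the retina, also hold CRALBP and RDH10, and a second route that supplies cones has been placed there.

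Cells were assigned to classes by UMIs, the counted RNA molecules, of marker genes, none of which is one of the 9. The gates left 13239 and 4981 rods under short-wavelength and white light, 427 and 215 cones, 97 and 44 Müller glia, 151 and 57 rod bipolar cells, and 46 and 21 microglia or macrophages. Median depth was 2322 and 2721 UMIs in rods, 6104 and 4108 in cones, and 5479 and 7439 in Müller glia. The 2 libraries shared 26 barcodes. Levels are shares of the UMIs of the class, scaled to 1000000 (CPM), counted at the 3′ end and not scaled by gene length. Every interval given is at the 95% level and reflects counting error alone.

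On mm10 the annotation places Rlbp1 on chromosome 7 (79374870 to 79387048, minus strand), Rdh10 on chromosome 1 (16105774 to 16133734, plus) and Rdh8 on chromosome 9 (20818503 to 20826117, plus). Rdh11 (79174337 to 79192293, minus) and Rdh12 (79208914 to 79222665, plus) are neighbours on chromosome 12, 16620 bases apart. Abca4 (122044443 to 122180123, plus) and Rpe65 (159599175 to 159625321, plus) lie on chromosome 3, and Rbp3 (33954003 to 33964216, plus) and Rgr (37034909 to 37048964, minus) on chromosome 14. Abca4 is overlapped by 2 pseudogenes on the opposite strand, and the other 8 genes overlap no other annotated gene.

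The promoters of 3 members with different cellular patterns are shown, since Abca4 was highest in rods, Rbp3 in cones and Rlbp1 in Müller glia. They are RefSeq sequences of GRCm38.p6 upstream of the transcript start, written 5′ to 3′ on the gene's strand. Capitals mark TAATCC on either strand (GGATTA on the reverse), the core letters of the site bound by the photoreceptor factor CRX and its relative OTX2.
Abca4 (chr3:122044210-122044442): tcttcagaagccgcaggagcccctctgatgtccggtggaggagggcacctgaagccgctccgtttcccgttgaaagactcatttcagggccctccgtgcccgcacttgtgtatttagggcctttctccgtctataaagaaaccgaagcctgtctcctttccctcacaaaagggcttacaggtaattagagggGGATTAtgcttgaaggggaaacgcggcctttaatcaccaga
Rbp3 (chr14:33953753-33954002): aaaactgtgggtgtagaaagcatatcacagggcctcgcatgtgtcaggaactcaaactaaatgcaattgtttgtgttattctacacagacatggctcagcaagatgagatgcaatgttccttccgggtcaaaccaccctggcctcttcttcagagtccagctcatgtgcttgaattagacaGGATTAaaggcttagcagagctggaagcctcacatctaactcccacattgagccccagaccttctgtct
Rlbp1 (chr7:79387049-79387277): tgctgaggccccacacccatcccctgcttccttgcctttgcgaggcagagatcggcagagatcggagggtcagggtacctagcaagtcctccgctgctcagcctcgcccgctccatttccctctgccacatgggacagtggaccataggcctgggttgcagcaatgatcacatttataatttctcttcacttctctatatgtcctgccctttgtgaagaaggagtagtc
These letters were present in the 250 bases upstream of Abca4, Rbp3, Rgr and Rpe65 and not in those of Rlbp1, Rdh8 or Rdh12. Both entries of Rdh11 lay inside the annotated gene and are not counted, and Rdh10 had no entry. Of all 32851 RefSeq promoter windows of that length, 6.25% held them. The letters are a match and not a measured site: they were in the window of Rpe65, of which almost no RNA was counted, and not in that of Rdh12, a gene of high level in rods.

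Abca4, Rdh12, Rdh8 and Rdh11 were higher in rods than in cones. In rods Abca4 stood at 1193 CPM (1182 to 1204) in the short-wavelength library and at 1175 (1159 to 1191) in the white-light library, against 613 and 620 in cones. Rdh12, which encodes an inner segment dehydrogenase that reduces retinal, stood at 890 and 896 CPM in rods and 390 and 411 in cones. Both genes thus had nearly the same level under both lights, with cones at 0.514 and 0.527 times the rod level for Abca4 and 0.438 and 0.459 times for Rdh12. Rdh8, the outer segment retinol dehydrogenase, stood at 76.2 and 64.1 CPM in rods and 44.2 and 31.0 in cones. Rdh11, a broadly expressed relative, stood at 49.3 and 49.3 CPM in rods and 30.5 and 28.4 in cones. With every cell thinned to 1000 UMIs the white-light cone over rod log2 ratio of Rdh11 was 0.12, with an interval of the ratio from 0.541 to 2.01.

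Rbp3 ran the other way between the photoreceptors. It stood at 608 CPM (600.2 to 616) and 701 (688 to 714) in rods and at 1373 (1329 to 1419) and 1564 (1492 to 1637) in cones. Cones therefore held 2.26 times (2.18 to 2.34) the rod level under short-wavelength light and 2.23 times (2.12 to 2.34) under white light. Among cones, Rbp3 was at 1445, 1373 and 1426 CPM in cells dominated by Opn1sw, holding both opsins and dominated by Opn1mw under short-wavelength light, and at 1777, 1560 and 1650 CPM under white light. With every cone thinned to 1000 UMIs, 74.2% and 78.6% of cones had an Rbp3 UMI, against 41.7% and 44.8% of rods (96.3% and 95.8% against 70.5% and 76.1% before thinning). In thinned microglia, which should lack the gene, the shares were 9.76% and 10.0%.

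Counted over both libraries, 5 of 7 members with at least 50 UMIs were lower in cones than in rods, with intervals below 1 in both, against 19.4% of all genes. With thinning to 1000 UMIs 3 of 7 were lower, Rdh12, Rdh8 and Abca4, against 7.64% of all genes. One of the 7, Rbp3, was higher, against 16% of all genes. Rlbp1 was the remaining one, at 22 and 12 UMIs in all cones, with a ratio of 0.617 (0.383 to 0.944) in one library and 0.883 (0.448 to 1.58) in the other.

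Cones also carried RNA of rod genes, and this touches the cone levels. The 8 rod markers of the gate stood in cones at a median of 28.8% of their rod level under short-wavelength light (24.9% to 88.9%) and 50.3% under white light (28.0% to 115%). Rdh12, at 43.8% and 45.9%, lay above that median in the first library and below it in the second. Abca4, at 51.4% and 52.7%, was above both medians. In the cones with at least 3000 UMIs the marker medians were 27.4% and 44.2%, Abca4 was at 51.7% and 53.4% and Rdh12 at 42.7% and 44.0%. Rbp3, at 226% and 223% of the rod level in all cones, was above every rod marker in both libraries. How much of the cone Rdh12, Rdh8, Rdh10, Rdh11 and Abca4 came from rod RNA was not tested.

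The droplets gated as cones were not alike in this respect. Of them, 53 of 427 and 82 of 215 had fewer than 10 opsin UMIs, with Gnat1, the rod transducin, at 2785 and 4378 CPM against 3222 and 3531 in rods. Their Rdh12 stood at 621 and 619 CPM, against 337 to 394 CPM in the other cone groups of the short-wavelength library and 334 to 408 CPM in those of the white-light library. Their Rbp3 stood at 943 and 1291 CPM.

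**Figure D1:**
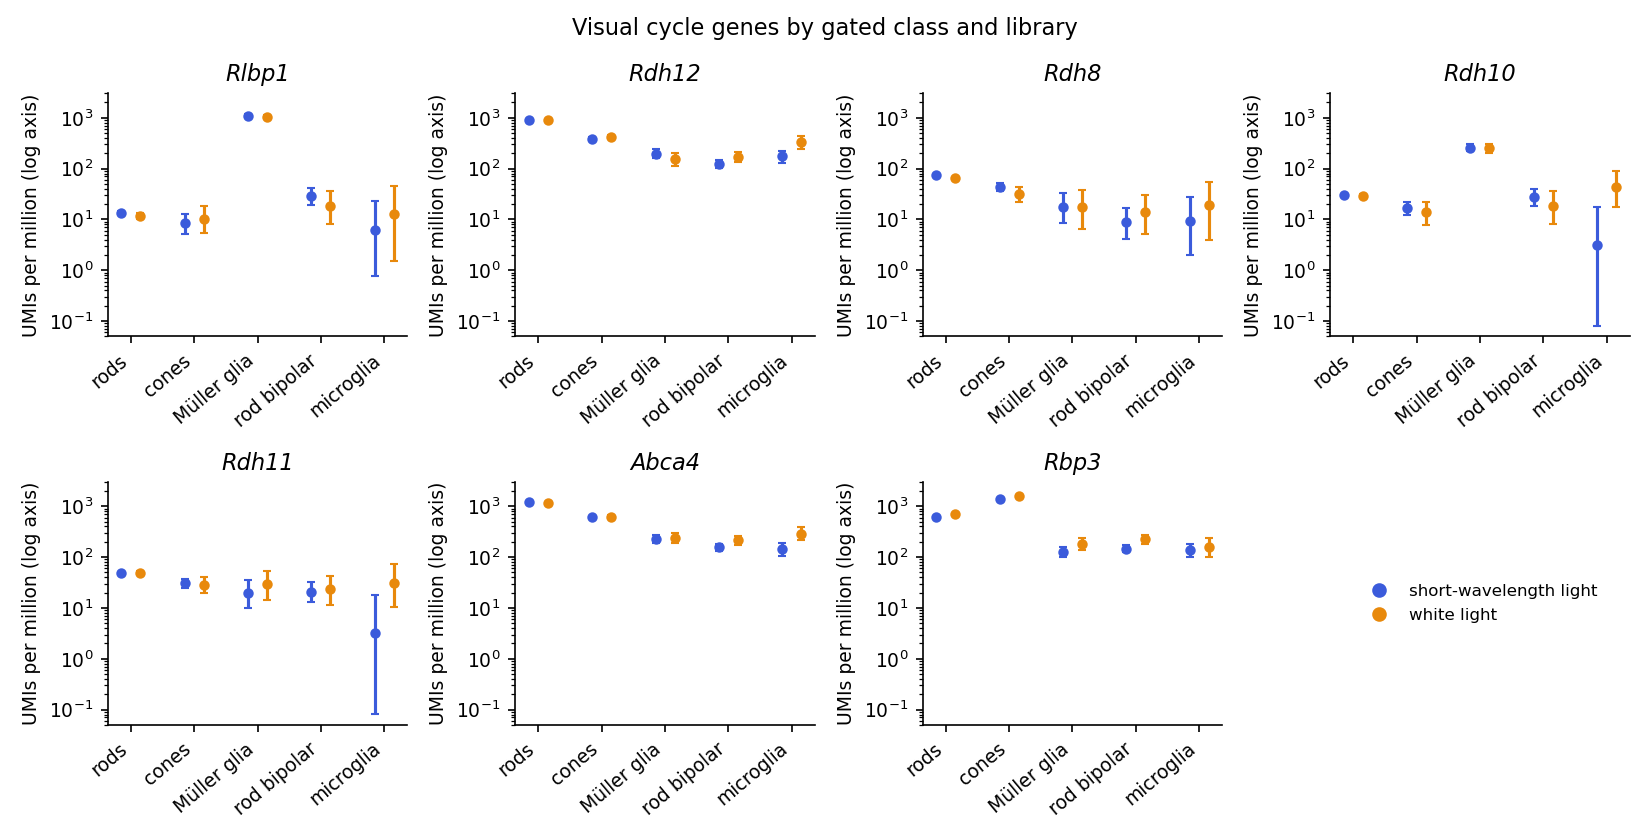
Level of 7 visual cycle genes in CPM (log axis) in 5 gated classes, with 1 point per library and 95% counting intervals. Rlbp1 and Rdh10 peak in Müller glia, at 1099 and 1038 CPM and at 258 and 251 CPM, Rbp3 in cones, and Abca4, Rdh12, Rdh8 and Rdh11 in rods.

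Müller glia held the binding protein gene Rlbp1 and the dehydrogenase gene Rdh10 above the rod level. Rlbp1 stood at 1099 CPM (1014 to 1189, 618 UMIs) and 1038 (932 to 1152, 352 UMIs) in Müller glia and at 13.6 and 11.7 CPM in rods. That is 80.9 times (71.8 to 91.1) and 88.6 times (74.2 to 106) the rod level. Rdh10, which oxidises retinol to retinal, stood at 258 CPM (218 to 303) and 251 (200.2 to 309.9) in Müller glia, 8.55 times (7.14 to 10.2) and 8.67 times (6.80 to 10.9) the rod level. Of 7 members with enough UMIs, these 2 were higher in Müller glia than in rods in both libraries (15.5% of all genes were) and Rdh12, Rdh8, Abca4 and Rbp3 were lower (14.9% of all genes were).

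The same 2 genes separated Müller glia from rod bipolar cells and microglia. Rlbp1 stood at 29.0 and 18.6 CPM in rod bipolar cells and at 6.33 and 12.6 CPM, 2 UMIs in each library, in microglia. Rdh10 stood at 28.0 and 18.6 CPM in rod bipolar cells. In microglia it stood at 3.17 CPM on 1 UMI and, under white light, at 44.1 CPM (17.7 to 90.9) on 7 UMIs. Both were higher in Müller glia than in rod bipolar cells in both libraries, 2 of 6 members against 16.6% of all genes. Below Müller glia the order for Rlbp1 under short-wavelength light was rod bipolar cells, rods and cones. The interval of rod bipolar cells (19.4 to 41.6 CPM) was clear of that of rods (12.4 to 14.8 CPM). Those of rods, cones (5.25 to 12.7 CPM) and microglia overlapped. The direct cone over rod ratio, given above, nevertheless had an interval below 1 in this library. In the white-light library the intervals of rods, cones, rod bipolar cells and microglia overlapped.

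The photoreceptor members seen in Müller glia, rod bipolar cells and microglia were set against the rod marker RNA of the same classes. Whether this RNA was free, or came from rods caught in the same droplet, was not tested. In Müller glia the 8 rod markers stood at 18.0% to 23.2% of their rod level (median 20.6%) in the short-wavelength library and at 20.5% to 30.7% (median 25.6%) in the white-light library. Abca4 stood at 18.9% and 20.1% there, Rdh12 at 22.2% and 17.1%, Rbp3 at 21.1% and 26.1%, and Rdh8 at 23.3% and 27.6%. These values, from 226 and 236 CPM of Abca4 to 17.8 and 17.7 CPM of Rdh8, lay in or near the range of the rod markers. Rdh12 and Abca4 lay below that range under white light. The part of rod RNA in these values was not tested. Rdh11 stood at 39.7% and 59.8%, on 11 and 10 UMIs, above the marker range in both. In rod bipolar cells the markers were at 12.6% to 18.8% and 19.3% to 28.5%. Rbp3, at 24.0% and 32.2%, was above them in both libraries, as was Rdh11, at 42.6% and 47.2% on 21 and 10 UMIs. Abca4 stood at 13.0% and, below the markers, 18.2%, and Rdh12 at 14.1% and, just below them, 19.2%. Rdh8 stood at 11.8%, below the markers on 9 UMIs, and at 21.8%. In microglia the markers ranged from 12.7% to 23.3% and from 17.4% to 32.3%. There Abca4 stood at 11.9%, below the markers, and at 24.7%. Rbp3 in microglia stood at 22.4% and 22.5%, and Rdh12 at 19.6% and, above the markers, 36.6% on 52 UMIs.

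**Figure D2:**
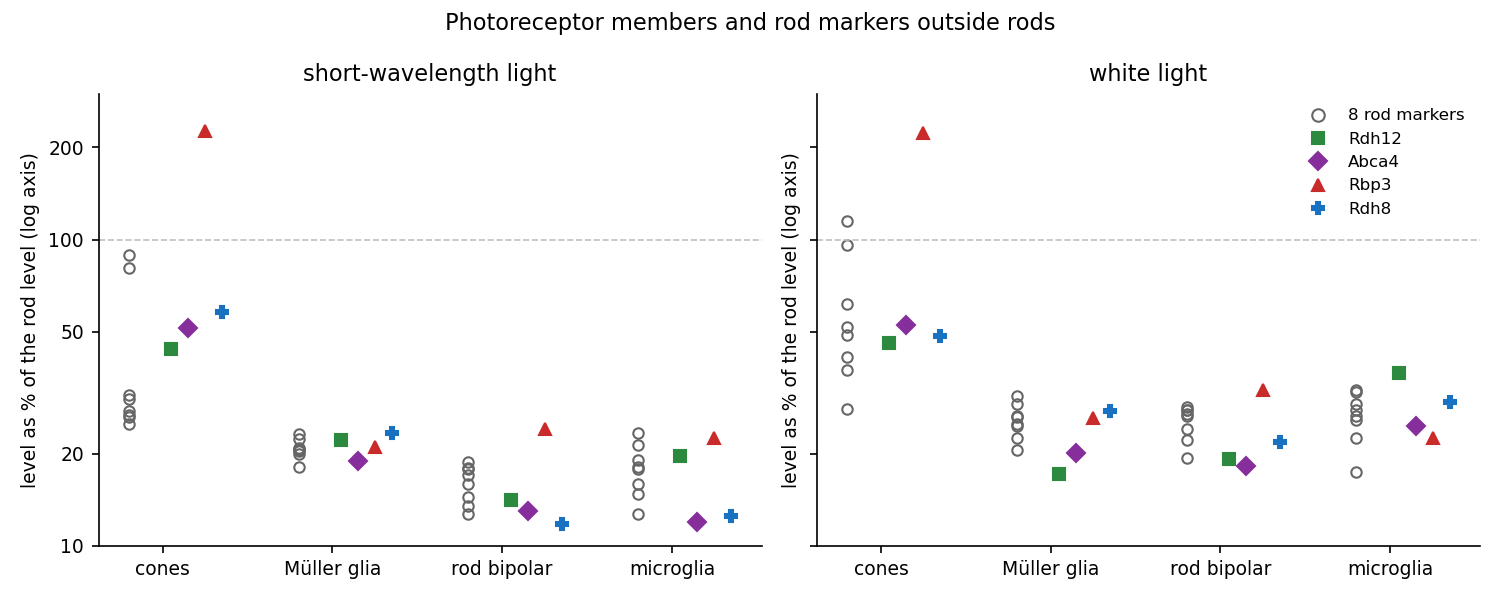
Level of 4 photoreceptor members (filled symbols) and of the 8 rod markers (open circles) in each other class, as a percentage of the level in rods (log axis), per library. Outside cones some members fall within the range of the rod markers and others above or below it, while Rbp3 in cones stands above the rod level at 226% and 223%.

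Seen from the other side, Müller RNA in rods was scarcer. The 9 Müller markers stood in rods at 0.160% to 0.932% of their Müller level in the short-wavelength library and at 0.208% to 1.19% in the other. Rlbp1 in rods was at 1.24% and 1.13%, just above the highest marker, Glul, in the first library and just below it in the second. Rdh10 in rods was at 11.7% and 11.5%, above every marker in both. Neither Rlbp1 nor Rdh10 was in the gate, so the markers are an uneven measure for them.

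Rod droplets that held Rlbp1 RNA also held more Müller marker RNA and more of some cone bipolar and amacrine markers. An Rlbp1 UMI was found in 439 of 13239 rods (3.32%) and 164 of 4981 (3.29%), with 2 or more UMIs in 54 and 21 of them and at most 5. Thinned to 1000 UMIs, the shares were 1.42% and 1.08%, and in cones 0.939% and 0.952%. The summed Müller markers stood at 330 CPM in rods with an Rlbp1 UMI and at 76.5 CPM in rods without under short-wavelength light, and at 277 and 84.3 CPM under white light. Glul, glutamine synthetase of Müller glia, was 4.56 times (4.03 to 5.14) and 3.40 times (2.78 to 4.13) as high, and 7 of 9 Müller markers had an interval above 1 in each library. Grik1, a glutamate receptor gene on the cone bipolar list, was 15.0 times (10.2 to 21.7) and 4.01 times (2.49 to 6.21) as high, and it had 0 and 1 UMIs in Müller glia. The cone bipolar list summed to 2.27 and 1.53 times its level in rods without Rlbp1, with 4 and 5 of its 8 genes at 0 UMIs. The amacrine and horizontal list summed to 1.15 and 1.33 times, with 7 and 5 of its 10 genes at 0 UMIs. The rod bipolar list summed to 0.938 and 1.03 times. Snhg11, on the amacrine and horizontal list, was 15.4 times (8.75 to 26.7) and 3.25 times (0.998 to 8.30) as high, and Lhx4 6.68 times (2.45 to 15.8) in the short-wavelength library, with 0 UMIs in the Rlbp1-holding rods of the other. Snhg11 and Lhx4 had 0 UMIs in Müller glia of both libraries. Pax6, also on the amacrine and horizontal list, was 2.36 times (1.19 to 4.27) and 2.63 times (1.02 to 5.74) as high. Unlike Snhg11, Pax6 was abundant in Müller glia, at 1065 CPM in the short-wavelength library. Slc6a9, on the same list, was at 0.794 times (0.596 to 1.04) and 1.09 times (0.742 to 1.56).

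The pigment epithelium list did not behave as a whole in these droplets. Dapl1 accounted for 59 of 59 UMIs of the list under short-wavelength light and 21 of 23 under white light, at 11.5 times (8.32 to 15.8) and 8.02 times (4.65 to 13.3) its level in rods without Rlbp1. Of the 9 genes on the list, 8 and 6 were at 0 there, among them Pmel, Tyrp1 and Dct of pigment granules and melanin synthesis and the channel gene Best1 in both libraries. These zeros set only a loose limit, since the same genes had few or no UMIs in rods without Rlbp1. The interval of the ratio reached 3.63 and 7.90 for Pmel and 6.92 and 7.26 for Dct. Dapl1 itself stood at 265 and 268 CPM in Müller glia. Where the Rlbp1 and Dapl1 RNA of these rods came from was not tested. Among photoreceptor members, Rdh12 was at 894 and 877 CPM in rods with an Rlbp1 UMI and at 890 and 897 CPM in rods without. Rbp3 was 1.15 times (1.07 to 1.22) as high in the short-wavelength library and 0.993 times in the other, and Abca4 1.02 and 0.893 times (0.828 to 0.963).

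**Figure D3:**
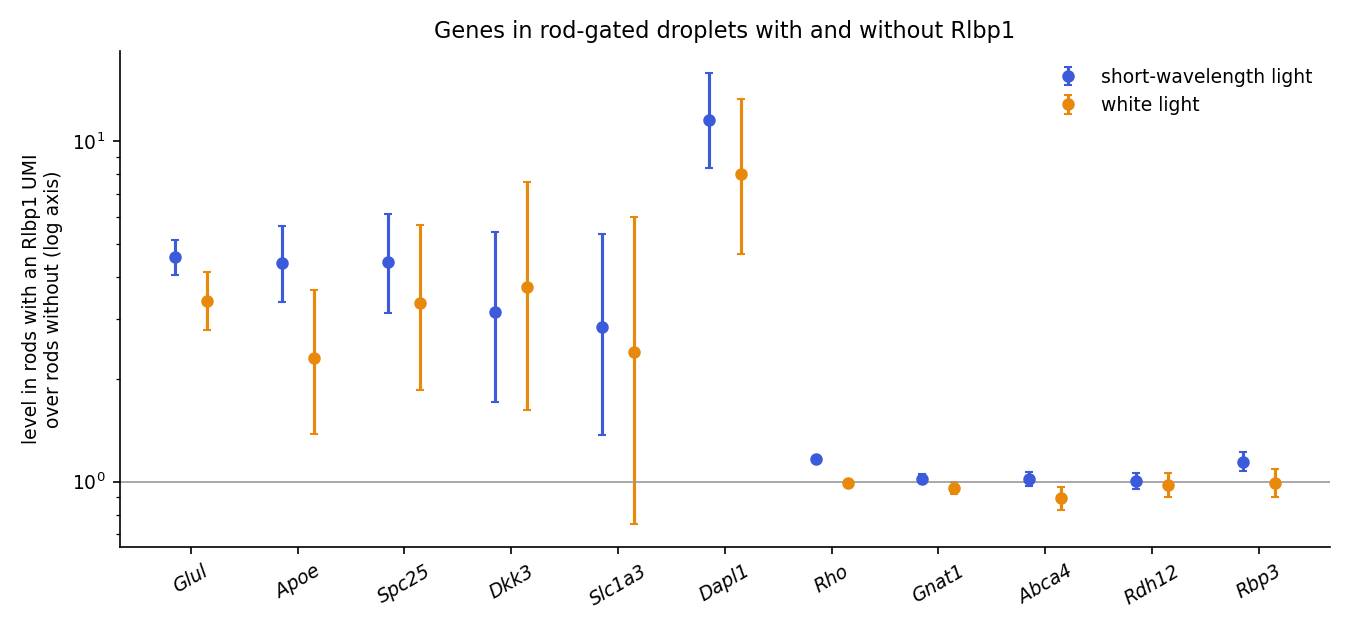
Ratio (log axis) of the level in rods with an Rlbp1 UMI to the level in rods without, per library, with 95% counting intervals, for 5 Müller markers, Dapl1, 2 rod markers and 3 members. Glul stands at 4.56 and 3.40 and Dapl1 at 11.5 and 8.02, while Rdh12 stands at 1.01 and 0.978.

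The steps of the pigment epithelium were almost absent. Rpe65 had 1 UMI in all 16106 short-wavelength barcodes and 0 in all 5707 white-light barcodes. Rgr had 33 and 9 UMIs, of which 3 and 0 were in Müller glia and 11 and 5 in rods. Only 2 short-wavelength and 3 white-light droplets passed the gate for pigment epithelium RNA, and 2 white-light droplets passed it with no other gate than rod. No comparison by light was possible for this class.

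One short-wavelength droplet of 2666 UMIs held 16 of the 33 Rgr UMIs, with 144 UMIs of Ttr, 31 of Dct, 21 of Rdh5 and 4 of Lrat, and it also passed the Müller gate with 1 UMI of Glul. It held 4 UMIs of Rlbp1, 3 of Rdh10 and none of Rpe65. A white-light droplet of 1011 UMIs held 3 UMIs of Rgr, 3 of Rdh10, 1 of Rlbp1, 74 of Ttr, 8 of Dct and 4 of Rdh5, and again none of Rpe65. The other white-light droplet, of 770 UMIs, held 4 UMIs of Rlbp1, 11 of Pmel and 25 of Ttr, and none of Rgr, Rdh10 or Rpe65. At such depths a count of 0 sets only a loose limit: the 3 counts that a 0 allows come to 1684 CPM over both white-light droplets.

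Between the light conditions the differences were small. In rods Rdh8 was higher under short-wavelength light, at 76.2 against 64.1 CPM, a ratio of 1.19 (1.11 to 1.28), and Rbp3 was lower, at 608 against 701 CPM, a ratio of 0.867 (0.848 to 0.887). The other 5 members tested had intervals that included 1: Rlbp1 at 1.16 (0.982 to 1.37), Rdh12 at 0.993 (0.974 to 1.01), Rdh10 at 1.04 (0.938 to 1.16), Rdh11 at 0.999 (0.920 to 1.09) and Abca4 at 1.02 (0.998 to 1.03). One of 7 in each direction compares with 14.4% of all genes higher and 13.9% lower, so the share of members was near that of all genes. With TMM scaling 3 of 7 members were higher, against 19.998% of all genes, and with the median of ratios 3 of 7, against 20.5%. Lower was 1 of 7 with each, against 10.5% and 10.2% of all genes. No member was wholly beyond 1.5-fold, as 0.101% of all genes were upwards and 0.327% downwards. The median log2 ratio was 0.02 over the 7 members and 0.01 over all 12851 genes tested.

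In cones Rbp3 was again lower under short-wavelength light, at 1373 against 1564 CPM, with a ratio of 0.878 (0.830 to 0.930), 1 of 6 members against 6.49% of all genes. In cones thinned to 1000 UMIs its log2 ratio was -0.06 and its interval, from 0.846 to 1.09, included 1. Rdh8, at 1.42 (0.972 to 2.13) on 116 and 36 UMIs, was not called, and no member was higher, where 7.89% of all genes were. Abca4 was at 0.989 (0.906 to 1.08) and Rdh12 at 0.948 (0.849 to 1.06). The rod markers in cones stood at a median of 28.8% of their rod level under short-wavelength light and 50.3% under white light. The part of rod RNA in the cone ratios was not tested. In Müller glia Rlbp1 was at 1.06 (0.927 to 1.21) and Rdh10 at 1.03 (0.782 to 1.36), and none of 5 members was called, against 4.12% of all genes higher and 5.66% lower. Rbp3 there was at 0.700 on 72 and 62 UMIs, with an interval from 0.492 that just reached 1. No member was wholly beyond 1.5-fold in cones, where 0.0824% of all genes were upwards and 0.283% downwards, or in Müller glia, where 0.202% and 0.152% were.

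In rod bipolar cells Rdh12, Abca4 and Rbp3 were all lower under short-wavelength light, 3 of 3 against 5.78% of all genes, with ratios of 0.730, 0.722 and 0.645, and none was higher, against 5.91%. In microglia Rdh12 and Abca4 were lower, 2 of 3 against 11.8%, with ratios of 0.531 and 0.491, and none was higher, against 11.6%. The rod marker RNA moved the same way in these classes. The median level of the 8 rod markers, relative to rods, was 16.5% and 26.7% in rod bipolar cells and 17.9% and 27.2% in microglia. The part of rod RNA in these differences was not tested.

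**Figure D4:**
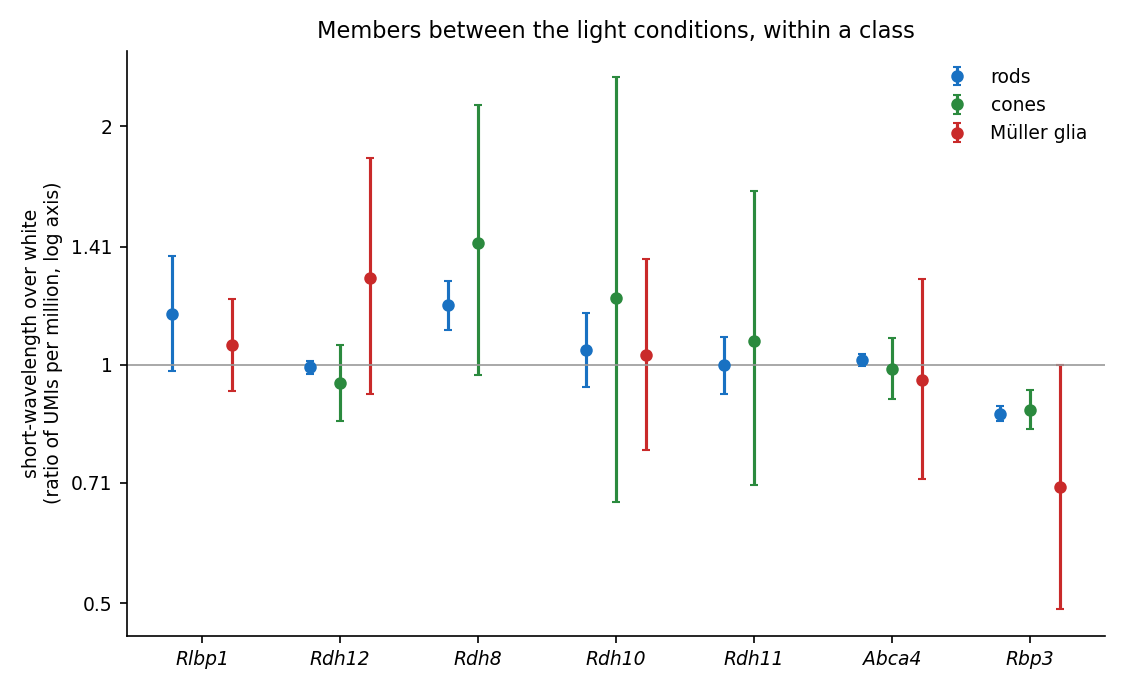
Ratio of short-wavelength to white light (log axis) for the members with at least 50 UMIs in rods, cones and Müller glia, with 95% counting intervals. Rbp3 lies below 1 in rods and cones at 0.867 and 0.878, Rdh8 lies above 1 in rods at 1.19, and Rlbp1 in Müller glia is at 1.06.

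Rbp3 in rods varied far more with the share of Malat1, a nuclear long non-coding RNA, than with light. Rods of both libraries were put in 5 equal groups by their Malat1 share of UMIs. From the group with the least Malat1 to the group with the most, Rbp3 was 1335, 606, 479, 420 and 429 CPM under short-wavelength light and 1249, 607, 502, 461 and 452 CPM under white light. The group with the most Malat1 held 0.321 times (0.309 to 0.334) and 0.362 times (0.336 to 0.390) the level of the group with the least, where the median ratio over 11135 genes was 1.15 and 1.10. Rdh8 went the opposite way, from 47.1 to 87.7 CPM and from 42.1 to 79.4 CPM. Abca4 and Rdh12 moved less, at 1.29 and 1.18 times for Abca4 and 1.13 and 1.14 times for Rdh12. The median Malat1 share was 3.32% and 3.20% in the group with the least and 7.36% and 7.25% in the group with the most.

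The light conditions differed in the same measure. The group with the least Malat1 held 16.6% of short-wavelength and 29.1% of white-light rods, and the group with the most held 23.0% and 12.0%. Within the 5 groups the ratio of Rbp3 between the lights ran 1.07, 0.9996, 0.954, 0.910 and 0.948, against 0.867 over all rods, and 1 interval lay below 1 and 1 above. The lower Rbp3 under short-wavelength light was thus not seen in every group. Rdh8 was above 1 in all 5 groups, from 1.06 to 1.25, with 1 interval above 1. Malat1 itself was at 56222 CPM in short-wavelength rods and 50738 in white-light rods, at 43585 and 37406 in cones, and at 90054 and 84099 in Müller glia. Its part in the differences in cones and Müller glia was not tested. The haemoglobin gene Hbb-bs also differed, at 31.9 and 66.2 CPM in rods and 17.9 and 62.9 CPM in cones, and with the haemoglobin gate left out the log2 ratio of Rbp3 in rods was -0.21, against -0.20.

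**Figure D5:**
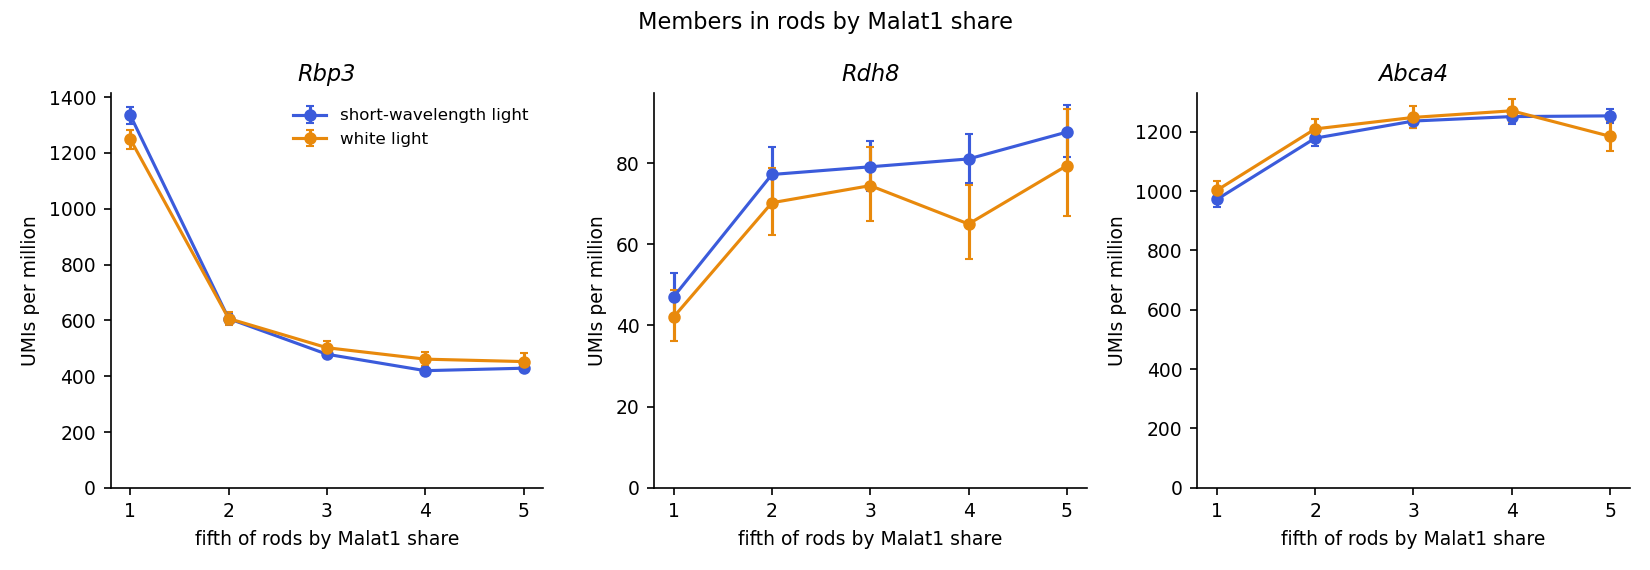
Level of Rbp3, Rdh8 and Abca4 in rods (CPM) in 5 equal groups of rods by Malat1 share, from least (1) to most (5), per library with 95% counting intervals. Rbp3 falls from 1335 and 1249 to 429 and 452 CPM, while Rdh8 is higher in the group with the most Malat1 at 87.7 and 79.4 CPM.

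The genes with the pattern most like each member were found by Pearson correlation of log levels over 10 points, 5 classes in each of 2 libraries, among 12745 genes. The points share libraries, and depth and rod RNA differ among them. Impg1, which encodes a proteoglycan of the matrix around photoreceptors, was nearest to both Abca4 (0.994) and Rdh8 (0.988), and Peli3 was nearest to Rdh12 (0.990). Pde6d, a prenyl-binding protein gene, was nearest to Rbp3 (0.994), Npas3, Plpp3 and Crip2 were nearest to Rlbp1 (0.997 each), Fam168a to Rdh10 (0.979) and Bbs2 to Rdh11 (0.979).

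A wider list of 28 retinoid genes, of which 27 were in the matrices, gave the neighbouring steps. In rods 16 had at least 50 UMIs, 2 of them higher under short-wavelength light, Rdh14 and Awat2, and 3 lower, Dhrs3, Ttr and Dgat1, beside the 14.4% and 13.9% of all genes. Ttr, the transthyretin that carries retinol-binding protein in blood and is made by pigment epithelium, was the single gene wholly beyond 1.5-fold. Its ratio was 0.330 (0.184 to 0.585), 1 of 16 where 0.327% of all genes were lower by that much. Its level in rods was very low, at 0.609 and 1.84 CPM on 23 and 31 UMIs. The 2 and 3 droplets that passed the pigment epithelium gate held 144 and 99 Ttr UMIs. The part of such RNA in the rod level was not tested. In cones 1 of 7, the receptor gene Adipor1, was lower, at 0.790 (0.692 to 0.902), where 6.49% of all genes were. Adipor1 stood higher in rods, at 504 and 499 CPM, and white-light cones held more rod marker RNA. The part of rod RNA in this ratio was not tested. In Müller glia 0 of 5 were called, where 4.12% of all genes were higher and 5.66% lower.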

How the data were processed

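Mouse retina was profiled on the 10x Genomics Chromium platform (3′ ends), 1 library per light condition. The matrices hold UMI counts as deposited, unnormalised. They were written by Cell Ranger 9.0.0 per the file headers, and the submitters' processing notes name mm10, Seurat and edgeR. Total UMIs were 51681469 and 20952589, over 16106 and 5707 barcodes.

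Cells had to show 300 or more genes and no more than 20% mitochondrial UMIs. The highest Scrublet scores (scanpy 1.11.5) were removed per library at 0.8% per 1000 barcodes, 2072 and 259 barcodes, leaving 14023 and 5436 cells. A class needed at least 10 UMIs from at least 4 of its markers (pigment epithelium: 3 UMIs from 2). A droplet that passed 1 gate besides rod took that class, more than 1 made it mixed, and the rod gate alone made it a rod. Marker lists were 12. The class gates are not a clustering, and free RNA can raise them.

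UMIs were summed per class and library. Ratios of CPM carry an exact interval from the binomial split of 2 Poisson counts, given their sum. A gene was tested with at least 50 UMIs over both libraries in the classes compared, and called where the interval excluded 1, in both libraries for classes. Log2 values add 5 CPM. Shares carry exact Clopper-Pearson intervals. All 9 members are named, with the wider genes called by light and the nearest genes by pattern. The members and lists were chosen with earlier results of these data known. The intervals were tested on simulated Poisson counts, the model that they assume. That test held no variation between droplets or libraries, so it cannot show how the intervals perform with such variation. Gene positions come from GENCODE M21, with 9 of 9 identifiers matched, and promoters from RefSeq, with 8 of 9 genes matched. Alternatives were other gates, doublets kept, a stricter cell filter, thinning to 1000 UMIs, a mean over cells, a total without mitochondrial, ribosomal, haemoglobin and rod marker genes, TMM (edgeR 4.0.16, R 4.3.3), median of ratios and other count minimums. Malat1 groups, cones with at least 3000 UMIs and the haemoglobin gate left out were chosen after seeing the data.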

Additional observations from a re-analysis of the deposited data

How the results depend on the processing

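For the 26 class ratios, counted per library, whose interval excluded 1, 220 of 221 alternative values kept their direction, and of 3 called light values 40 of 41 did. The exceptions were Rdh11 in cones over rods under white light, at a log2 ratio of 0.12 when thinned to 1000 UMIs, and Rbp3 in rods by light, at 0.10 in the Malat1 group 1. Among the counts of members by class, 1 moved by over 1.5 times: those lower in cones, 5 as reported, were 3 with thinning. Members higher under short-wavelength light in rods, 1 as reported, were 2 with stricter gates (14.9% of all genes), 2 with the stricter cell filter (14.3%), 0 with thinning (7.52%), 3 with TMM (19.998%), 3 with the median of ratios (20.5%), and 2 and 0 in Malat1 groups 1 and 3 (7.07% and 6.89%). Those lower, 1 as reported, were 0, 0, 0, 2 and 0 in Malat1 groups 1, 2, 3, 4 and 5 (10.1%, 6.85%, 5.86%, 5.44% and 5.23% of all genes). In cones, members lower were 2 with looser gates (8.84%) and 0 of 3 with thinning (7.92%), and members higher, 0 as reported, were 1 with doublets kept (7.84%) and 1 with the haemoglobin gate left out (8.92%). In Müller glia 1 was higher with doublets kept (4.30%), and 1 was lower with the stricter cell filter (5.75%), with the smaller total (6.06%) and with the median of ratios (6.11%). For changes other than thinning and the Malat1 groups, which have fewer UMIs, the cause was not tested. No member's interval lay wholly beyond 1.5-fold by light in rods, cones or Müller glia under any alternative that gave one. Values moved by over 1.5 times: with thinning, by light in Müller glia, log2 1.15 for Rdh10, -1.19 for Rbp3 and -0.34 for Rdh12, and in cones -0.69 for Rdh11; over rods, -1.77 and 0.51 for Rdh11 and 1.97 for white-light Rdh10 in Müller glia. In white-light Müller glia over rods Abca4 was -3.10 and Rdh8 -2.21 with stricter gates, and Rdh12 -1.82 with looser ones. The pigment epithelium class gave no values. No paired analysis was possible because each light condition has 1 library. In Müller glia Rgr had at most 3 UMIs, and Rdh8 and Rdh11 at most 11, per library.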

Other observations

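Müller glia held further retinoid genes beside Rlbp1 and Rdh10. Rrh, which encodes peropsin, an opsin-like retinal-binding protein known from pigment epithelium, stood at 258 and 221 CPM in Müller glia under short-wavelength and white light, on 145 and 75 UMIs, and at 1.11 and 1.13 CPM in rods. Aldh1a1, which makes retinoic acid, stood at 53.3 and 59.0 CPM in Müller glia, and Cyp26a1, which degrades it, at 17.8 and 17.7 CPM on 10 and 6 UMIs, each under 1 CPM in rods. Slc27a1, a fatty acid transporter gene, stood at 204 and 203 CPM in Müller glia and at 56.3 and 59.4 CPM in rods. Between the lights the ratio of Rrh in Müller glia was 1.17 (0.876 to 1.56) and that of Slc27a1 was 1.01 (0.739 to 1.37).

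Dhrs3, a retinal reductase gene, stood at 105 and 114 CPM in rods and at 33.1 and 40.5 CPM in cones. Between rods and cones it thus sided with Rdh12 and not with Rbp3. In microglia Dhrs3 stood at 124 and 94.5 CPM on 39 and 15 UMIs, a level like that in rods. Adipor1, which encodes a receptor needed for photoreceptor lipids, stood at 504 and 499 CPM in rods and 240 and 303 CPM in cones.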
